A study of Mus musculus with 8 samples.

Results

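The lysosome is the acidic organelle in which a cell breaks down proteins, glycans and lipids. The 44 genes described here were listed by name for that function: 18 encode acid hydrolases of glycans and lipids or associated enzymes, 10 encode cathepsins and legumain, 4 encode cofactors of the lysosomal lumen, 6 encode membrane proteins, 5 encode subunits of the proton pump, and 1 is the transcription factor Tfeb. They were listed with earlier results of these arrays known. All 44 were measured, by 45 transcript clusters (Arsb by 2), among 17501 genes with a cluster of 1 symbol. They were measured in mouse embryonic fibroblasts (MEFs), connective tissue cells grown out of dissociated embryos, on 8 Affymetrix arrays. The groups were Smurf2-/- and wild-type MEFs, each at a late and an early passage, and each from a mixed background (129SVJ crossed with NIH Black Swiss, here mixed BL) and from C57B6. Late passage was 33 in mixed BL and 28 in C57B6 cells, and early passage was 6 in mixed BL and 7 in C57B6 cells. Smurf2, the deleted gene, encodes a ubiquitin ligase. There was 1 array for each combination, so each level of genotype, passage and background had 4 arrays. Per the labels, the Smurf2-/- mixed BL culture pooled 3 embryos, the wild-type mixed BL culture pooled 2, and each C57B6 culture came from 1 embryo. The descriptions and the growth protocol give different embryonic days (E14.5 in the descriptions, day 11.5 in the protocol). Whether the late and early arrays of a combination came from 1 culture is not stated. With 1 array for each combination, p-values measure only how far these single arrays scatter around a fitted model, and that scatter may be technical. In a model without interactions it also holds any way in which genotype, passage and background act together.

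Acid hydrolases work at the low pH that the proton pump, a rotary ATPase with a membrane sector and a cytosolic sector, builds across the lysosomal membrane. Tfeb and its relatives bind an E-box, the palindrome CACGTG, in the promoters of many lysosomal genes, and a longer form of it is known as the CLEAR element. In cultured fibroblasts, lysosomal beta-galactosidase, the product of Glb1, is the enzyme behind the stain used for senescent cells.

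Promoters were read first, since these letters are shared by members without any use of the array values. RefSeq windows of assembly GRCm38.p6, from 250 bases before to 50 bases after an annotated start, were at hand for 38 of the 44 members. CACGTG, which reads the same on both strands, occurred in the windows of 14 of these 38 members (36.8%), against 7.15% of all 32851 promoter windows and 10.3% of the measured genes that have a window. The 14 were Gaa, Gla, Glb1, Naglu and Arsa among the hydrolases, Ctsa, Ctsd, Ctsf, Ctsl and Lgmn among the proteases, Lamp1 and Mcoln1 among the membrane proteins, and Atp6v0d1 and Atp6v1a of the pump. The longer palindrome TCACGTGA, which contains CACGTG, occurred in 6 members (15.8%; Gla, Ctsa, Ctsd, Mcoln1, Atp6v0d1 and Atp6v1a), against 0.974% of all windows and 1.69% of the measured genes that have one. The CLEAR palindrome, which is TCACGTGA with a G before and a C after it, was in the window of 0 members, in 0.326% of all windows and in 0.59% of the measured genes that have one. Only this exact form of the CLEAR palindrome was searched. At so low a share few or none of 38 members would hold it, so the 0 decides nothing. A match describes the letters and shows no binding. The windows of 4 genes are printed whole in the direction of transcription, 5′ to 3′, with CACGTG in capitals. Lamp1 is shown because it held 4 copies, Ctsd because it held 2, Atp6v0d1 as a pump gene with 1, and Fuca1, which had the smallest adjusted p for passage, as a window without the palindrome.
Lamp1 (chr8:13158911-13159210, plus strand): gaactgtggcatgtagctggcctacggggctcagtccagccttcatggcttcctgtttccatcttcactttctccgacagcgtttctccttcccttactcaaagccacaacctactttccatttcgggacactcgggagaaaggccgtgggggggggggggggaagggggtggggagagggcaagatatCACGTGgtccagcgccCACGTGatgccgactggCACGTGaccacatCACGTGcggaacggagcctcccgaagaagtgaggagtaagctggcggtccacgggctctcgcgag
Ctsd (chr7:142387778-142388077, minus strand): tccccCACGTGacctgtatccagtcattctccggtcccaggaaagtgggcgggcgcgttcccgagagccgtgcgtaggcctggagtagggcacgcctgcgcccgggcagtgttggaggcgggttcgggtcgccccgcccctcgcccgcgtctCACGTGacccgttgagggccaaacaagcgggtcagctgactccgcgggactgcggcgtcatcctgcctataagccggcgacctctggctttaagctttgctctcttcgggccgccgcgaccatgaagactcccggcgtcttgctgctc
Atp6v0d1 (chr8:105566015-105566314, minus strand): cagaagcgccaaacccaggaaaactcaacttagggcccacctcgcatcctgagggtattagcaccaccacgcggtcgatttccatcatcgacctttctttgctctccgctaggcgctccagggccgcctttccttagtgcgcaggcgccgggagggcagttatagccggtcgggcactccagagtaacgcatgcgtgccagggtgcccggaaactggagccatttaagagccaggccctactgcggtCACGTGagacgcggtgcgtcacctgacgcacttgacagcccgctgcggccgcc
Fuca1 (chr4:135920476-135920775, plus strand): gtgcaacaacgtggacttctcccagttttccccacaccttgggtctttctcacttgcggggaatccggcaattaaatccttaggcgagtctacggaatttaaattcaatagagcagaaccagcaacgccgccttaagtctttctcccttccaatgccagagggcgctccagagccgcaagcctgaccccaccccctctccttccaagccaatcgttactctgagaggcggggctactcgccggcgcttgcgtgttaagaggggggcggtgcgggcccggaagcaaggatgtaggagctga

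In Lamp1 the palindromes began 61, 45, 28 and 15 bases before the annotated start, and in Atp6v0d1 the single copy began 3 bases before it. In Ctsd they began 245 and 98 bases before it. The copies of the remaining 11 members with the palindrome are shown with 7 bases on either side where the window allows, so that the flanking bases can be compared. Where a gene had 2 copies the one farther upstream is given. For Mcoln1 that copy is not part of a TCACGTGA, which lies at its other copy, 45 bases before the start.
Gaa (chr11:119267816-119267835, plus strand): gtgcgatCACGTGtttgact
Gla (chrX:134601220-134601239, minus strand): gattgatCACGTGagcatct
Glb1 (chr9:114401023-114401042, plus strand): tctgagtCACGTGgcctaca
Naglu (chr11:101070014-101070033, plus strand): ttcaggtCACGTGgcccgag
Arsa (chr15:89477428-89477447, minus strand): tcagtgtCACGTGttgtctg
Ctsa (chr2:164833754-164833773, plus strand): aaactgtCACGTGatgcaga
Ctsf (chr19:4855079-4855098, plus strand): cgtggtcCACGTGcctcgcg
Ctsl (chr13:64370744-64370763, minus strand): tagaagcCACGTGctgatct
Lgmn (chr12:102439129-102439148, minus strand): tgtctgtCACGTGgtccatt
Mcoln1 (chr8:3500441-3500460, plus strand): cgcttgtCACGTGttcagtt
Atp6v1a (chr16:44139378-44139397, minus strand): tttaaatCACGTGataggct

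**Figure D1:**
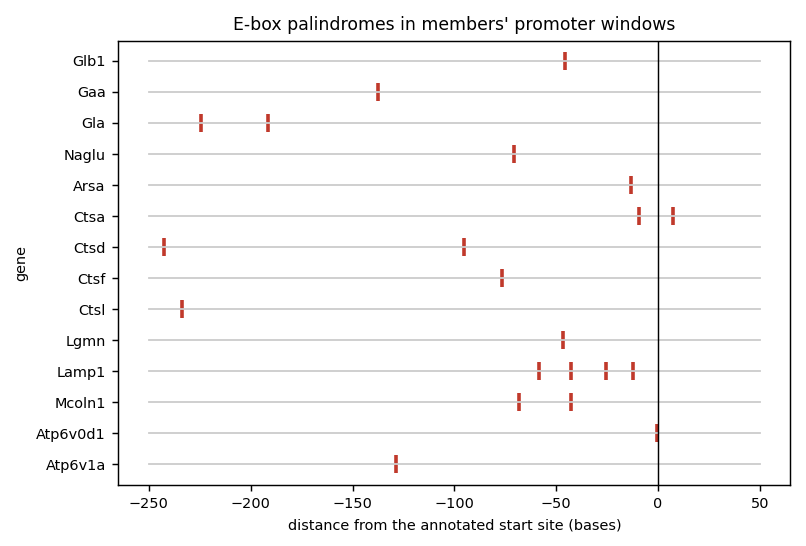
Position of the palindrome CACGTG in the promoter windows of the 14 members that held it. The horizontal axis is the distance in bases from the annotated start, from 250 before to 50 after it, each row is a gene and each mark a copy; Lamp1 has 4 copies and Gla, Ctsa, Ctsd and Mcoln1 have 2 each.

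As checks of the libraries, Smurf2 was lower in the Smurf2-/- array of all 4 matched pairs, at -1.21 to -0.43 in Smurf2-/- arrays against 0.43 to 0.96 in wild-type arrays (-1.57 ± 0.12, SE; limma, adjusted p = 0.0484). Whether its probes lie in the deleted part is not stated. All values are log2 signals that the authors centred on each cluster's median over the 8 arrays, so they carry no level that could be set between genes. A coarse class, here the bright class, could still be read from the numerical step of the values. On all arrays, 35 of the 45 member clusters (77.8%) held whole multiples of the step for log2 intensities of 8 to 16. Of all clusters with 1 symbol, 23.0% did. Of the 10 fibroblast markers, 7 were in that class (Col1a1, Col1a2, Col3a1, Fn1, Pdgfrb, Thy1 and Vim). Pdgfra, Dcn and Lum were not, and 0 of 17 macrophage and leukocyte markers were. A gene below 8 on some of the arrays can fall in or outside the class. The step below 8 is finer, and a value there may by chance be such a multiple. The first principal component (30.9% of the variance) placed the late Smurf2-/- arrays at 37.1 (mixed BL) and 36.6 (C57B6), above the other 6. The sex-linked genes Xist, Uty, Kdm5d and Eif2s3y also separated the genotypes (Xist -4.36 ± 0.33, adjusted p = 0.0484), and the labels give no sex. Genotype and embryo sex therefore cannot be told apart, and 3 members (Gla, Lamp2 and Atp6ap1) lie on the X chromosome.

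On average, late-passage arrays had lower signals than early-passage arrays for nearly every listed member. The late-minus-early difference was negative for 43 of the 44 members, with Tfeb the exception, and its median was -0.56 log2 units, against 0.0275 over all 17501 genes. Tpp1, a serine peptidase, averaged -0.40 ± 0.32 in late and 0.48 ± 0.23 in early arrays (SD, n = 4 each), a 1.84-fold lower signal. The largest differences were in the cysteine proteases Ctsk (-2.47 ± 0.51, SE) and Ctsf (-1.37 ± 0.24).

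In the additive limma model, 0 of 44 members passed an adjusted p of 0.05 over all genes, and 0.0171% of all genes did (3 of 17501). At an unadjusted p under 0.05, 35 members were lower in late cells, where 10.3% of all genes were. In 30 members the late array was below its early partner in all 4 matched pairs (11.9% of all genes), and in 21 members all 4 late arrays lay below all 4 early arrays (4.59% of all genes). The smallest adjusted p-values were 0.0583 for Fuca1, 0.0589 for Ctsb, 0.0815 for Tpp1 and 0.098 for Man2b2. With a mean-variance trend in the fit, 2 members were called, Fuca1 and Ctsb (adjusted p = 0.0393 each), among 25 of all 17501 genes. A trend has no clear meaning on values centred per cluster. Since the members are mostly of the bright class, the same shares were taken over the 3934 genes of that class, a comparison chosen after the data were seen. There 20.6% of genes were lower at an unadjusted p under 0.05 and 9.63% did not overlap, whereas 30 and 18 of the 35 members in the class did so. The median passage difference of the bright class was -0.0862, with 63.4% of its genes lower in late cells. In bulk RNA, fewer cells of a type and less RNA per cell cannot be told apart.

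**Figure D2:**
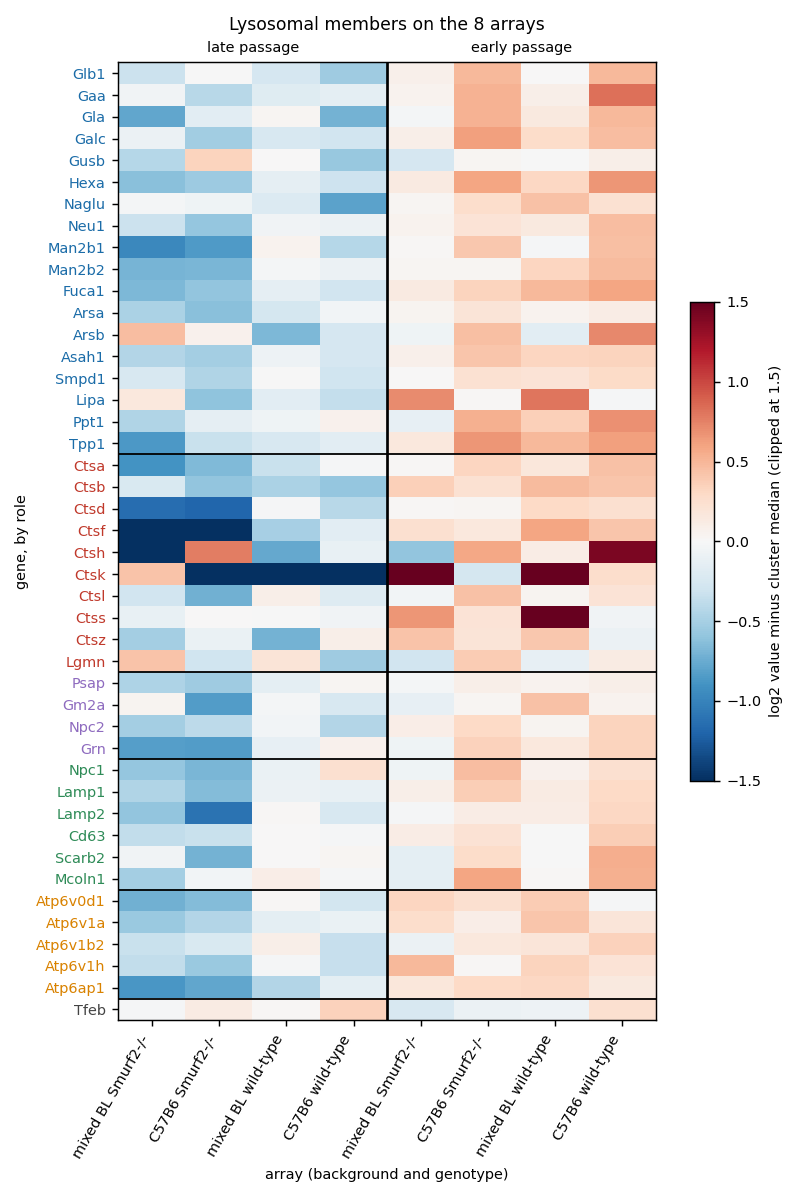
Centred log2 signal of the 44 members on the 8 arrays, with genes in rows by role and arrays in columns, late passage left of early and Smurf2-/- left of wild-type. Most rows are below 0 in the late columns, and 23 of the 44 members have their 2 lowest values on the late Smurf2-/- arrays.

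**Figure D3:**
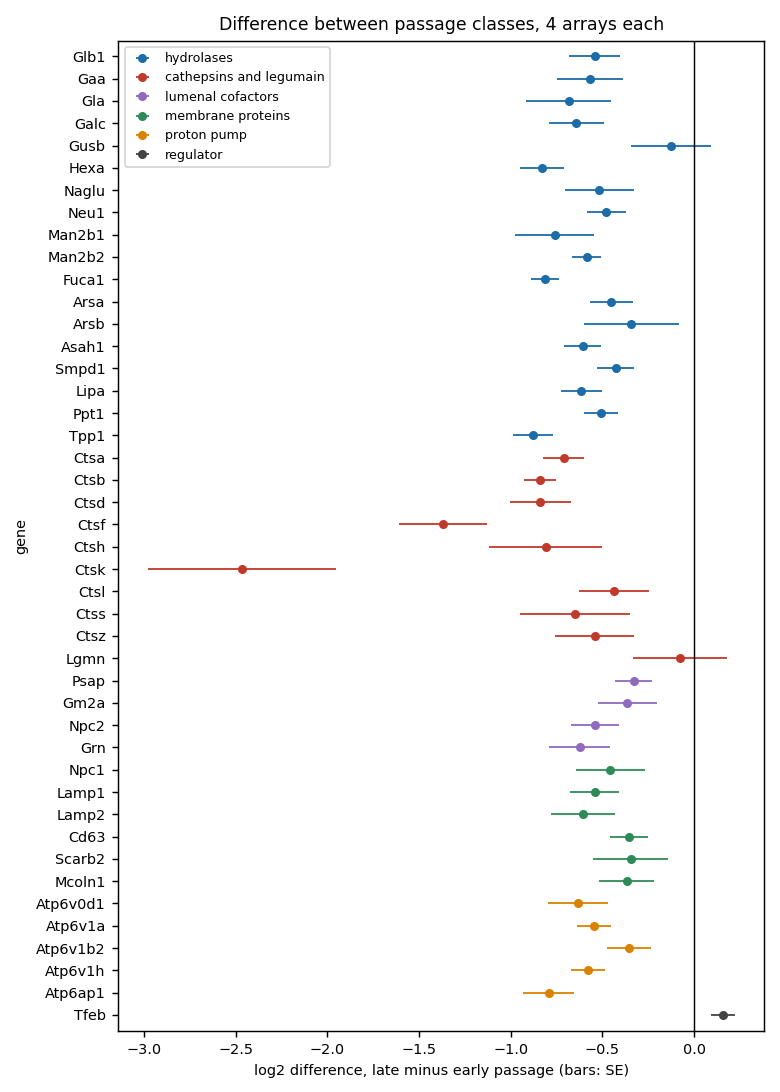
Late-minus-early log2 difference of each member (points; bars are the SE of the limma fit, 4 arrays per passage class), coloured by role. Every point except that of Tfeb lies below 0, and Ctsk and Ctsf lie farthest from it.

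The hydrolases of glycans and lipids and the enzymes listed with them were all lower in late cells on average, with a median of -0.58. At an unadjusted p under 0.05, 16 of these 18 were lower, and 0 after adjustment. Each pair of values that follows gives the mixed BL array and then the C57B6 array. Glb1, the beta-galactosidase of the senescence stain, was at -0.33 and -0.010 in the late Smurf2-/- arrays and -0.25 and -0.53 in the late wild-type arrays, against 0.074 and 0.48 in the early Smurf2-/- arrays and 0.010 and 0.49 in the early wild-type arrays. Its late and early arrays did not overlap, and the difference was -0.54 ± 0.14 (SE; adjusted p = 0.165), a 1.46-fold lower signal in late cells. Fuca1, which removes fucose from glycoproteins, was at -0.67 and -0.59 in the late Smurf2-/- arrays and -0.14 and -0.29 in the late wild-type arrays, against 0.14 and 0.34 in the early Smurf2-/- arrays and 0.49 and 0.59 in the early wild-type arrays. Both late Smurf2-/- arrays were the lowest of the 8 and the early wild-type C57B6 array the highest, with a passage difference of -0.81 ± 0.077. Tpp1 was at -0.86 and -0.34 in the late Smurf2-/- arrays and -0.24 and -0.15 in the late wild-type arrays, against 0.15 and 0.66 in the early Smurf2-/- arrays and 0.49 and 0.62 in the early wild-type arrays. Its 4 late arrays lay below its 4 early arrays as well (-0.88 ± 0.11). Man2b2, a mannosidase acting on the core of N-glycans, was at -0.69 and -0.69 in the late Smurf2-/- arrays and -0.025 and -0.086 in the late wild-type arrays, against 0.033 and 0.025 in the early Smurf2-/- arrays and 0.32 and 0.48 in the early wild-type arrays. Here the late Smurf2-/- arrays stood clear of the late wild-type arrays (-0.64), and the passage difference was -0.59 ± 0.081. Man2b1, the main lysosomal alpha-mannosidase, was at -0.96 and -0.84 in the late Smurf2-/- arrays and 0.049 and -0.43 in the late wild-type arrays, against 0.014 and 0.40 in the early Smurf2-/- arrays and -0.014 and 0.45 in the early wild-type arrays. Its late wild-type mixed BL array did not stand below the early one, so the passage classes overlapped (-0.76 ± 0.22).

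Enzymes of sphingolipid breakdown followed. Galc, which cleaves galactosylceramide, was at -0.086 and -0.52 in late Smurf2-/- cells, -0.24 and -0.29 in late wild-type cells, 0.086 and 0.61 in early Smurf2-/- cells and 0.27 and 0.46 in early wild-type cells. Smpd1, acid sphingomyelinase, was at -0.24 and -0.45 in late Smurf2-/- cells, -0.0038 and -0.30 in late wild-type cells, 0.0038 and 0.23 in early Smurf2-/- cells and 0.20 and 0.29 in early wild-type cells. In both genes late and early arrays did not overlap, with differences of -0.64 ± 0.15 for Galc and -0.43 ± 0.10 for Smpd1. Arsa, which desulfates sulfatide, was at -0.47 and -0.62 in late Smurf2-/- cells, -0.26 and -0.040 in late wild-type cells, 0.040 and 0.20 in early Smurf2-/- cells and 0.057 and 0.11 in early wild-type cells. It did not overlap either, and its 2 lowest arrays were late Smurf2-/- (-0.45 ± 0.12). Gla, the alpha-galactosidase mutated in human Fabry disease, was at -0.78 and -0.16 in late Smurf2-/- cells, 0.031 and -0.71 in late wild-type cells, -0.031 and 0.52 in early Smurf2-/- cells and 0.14 and 0.48 in early wild-type cells. The late wild-type mixed BL array reached the early range in this gene, and the difference was -0.68 ± 0.23.

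Among the other hydrolases, Gaa, which degrades glycogen in lysosomes, was at -0.048 and -0.42 in late Smurf2-/- cells, -0.18 and -0.15 in late wild-type cells, 0.048 and 0.52 in early Smurf2-/- cells and 0.086 and 0.82 in early wild-type cells. The 2 early C57B6 arrays stood highest, and late and early arrays did not overlap (-0.57 ± 0.18). Naglu, an enzyme of heparan sulfate breakdown, was at -0.034 and -0.065 in late Smurf2-/- cells, -0.21 and -0.80 in late wild-type cells, 0.034 and 0.26 in early Smurf2-/- cells and 0.43 and 0.23 in early wild-type cells. Its lowest array was late wild-type C57B6, and again the passage classes did not overlap (-0.52 ± 0.19). Ppt1, which takes palmitate off proteins, was at -0.45 and -0.13 in late Smurf2-/- cells, -0.068 and 0.068 in late wild-type cells, -0.13 and 0.53 in early Smurf2-/- cells and 0.36 and 0.68 in early wild-type cells. Each late array was below its early partner, but the early Smurf2-/- mixed BL array lay within the late range (-0.51 ± 0.092). Gusb, beta-glucuronidase, was at -0.43 and 0.34 in late Smurf2-/- cells, 0.012 and -0.57 in late wild-type cells, -0.25 and 0.032 in early Smurf2-/- cells and -0.012 and 0.083 in early wild-type cells. It had no common direction over the 4 pairs (-0.13 ± 0.22, adjusted p = 0.779), and the difference was 0.10 without the late C57B6 wild-type array. Hexa, Neu1, Arsb, Asah1, Lipa and the protease gene Ctsl are given by range: they spanned -0.72 to 0.46 in late arrays against -0.16 to 0.80 in early arrays, with passage differences of -0.83 to -0.34. Of these 6, 4 were lower in all 4 pairs.

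The 10 proteases ranged from -2.47 to -0.078 in their passage difference. All 10 were negative, 7 at an unadjusted p under 0.05, with a median of -0.76. Ctsb, a cysteine protease abundant in most cells, was at -0.23 and -0.59 in the late Smurf2-/- arrays and -0.48 and -0.58 in the late wild-type arrays, against 0.36 and 0.23 in the early Smurf2-/- arrays and 0.48 and 0.41 in the early wild-type arrays. Its late arrays lay well below its early arrays in both genotypes (-0.84 ± 0.087, adjusted p = 0.0589). Ctsd, the main aspartic protease of lysosomes, was at -1.14 and -1.20 in the late Smurf2-/- arrays and -0.020 and -0.41 in the late wild-type arrays, against 0.020 and 0.029 in the early Smurf2-/- arrays and 0.30 and 0.24 in the early wild-type arrays. The late Smurf2-/- arrays stood far below all others, and the late wild-type arrays were nearer to the early ones (-0.84 ± 0.17). Ctsf was at -1.66 and -1.74 in the late Smurf2-/- arrays and -0.50 and -0.15 in the late wild-type arrays, against 0.24 and 0.15 in the early Smurf2-/- arrays and 0.60 and 0.41 in the early wild-type arrays. The same order held, with a 2.58-fold lower signal in late cells over both genotypes. Ctsa, a carboxypeptidase that also protects Glb1 and Neu1 from degradation, was at -0.89 and -0.67 in the late Smurf2-/- arrays and -0.33 and -0.012 in the late wild-type arrays, against 0.012 and 0.32 in the early Smurf2-/- arrays and 0.17 and 0.44 in the early wild-type arrays. Its late Smurf2-/- arrays were again the lowest pair (-0.71 ± 0.11).

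In the other named proteases the mixed BL and C57B6 arrays did not follow the same order. Ctsk, the collagen-degrading protease best known from osteoclasts, was at 0.43 and -2.23 in late Smurf2-/- cells, -2.22 and -2.20 in late wild-type cells, 1.97 and -0.26 in early Smurf2-/- cells and 1.66 and 0.26 in early wild-type cells. Of the 4 late arrays, 3 stood between -2.23 and -2.20, and the late Smurf2-/- mixed BL array was above the early C57B6 arrays. Ctsh, an aminopeptidase, was at -1.61 and 0.77 in late Smurf2-/- cells, -0.76 and -0.12 in late wild-type cells, -0.59 and 0.58 in early Smurf2-/- cells and 0.12 and 1.41 in early wild-type cells. It was higher in C57B6 than in mixed BL cells (-1.37 ± 0.31 for mixed BL minus C57B6), and its late Smurf2-/- C57B6 array was not below the early one. Ctss, the protease of antigen processing in immune cells, was at -0.11 and 0.0036 in late Smurf2-/- cells, -0.0036 and -0.052 in late wild-type cells, 0.66 and 0.21 in early Smurf2-/- cells and 1.62 and -0.053 in early wild-type cells. The early mixed BL arrays stood out, and the others lay between -0.11 and 0.21 (-0.65 ± 0.30). The macrophage gene Lyz2 was high on the same 2 arrays, and its part in these values was not tested. Ctsz, a carboxypeptidase, was at -0.51 and -0.11 in late Smurf2-/- cells, -0.70 and 0.086 in late wild-type cells, 0.43 and 0.19 in early Smurf2-/- cells and 0.40 and -0.086 in early wild-type cells. It was lower late in mixed BL cells of both genotypes, and the C57B6 arrays stayed between -0.11 and 0.19. Lgmn, the asparagine-specific legumain that processes cathepsins, was at 0.43 and -0.30 in late Smurf2-/- cells, 0.19 and -0.53 in late wild-type cells, -0.29 and 0.38 in early Smurf2-/- cells and -0.12 and 0.12 in early wild-type cells. In this gene the late arrays were higher in mixed BL and lower in C57B6 cells, which left a mean difference of -0.078 ± 0.26 that turned positive without any 1 of the 4 C57B6 arrays (0.039 to 0.10).

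All 4 cofactors of the lumen were lower in late cells, 3 at an unadjusted p under 0.05 (median -0.45). Grn, which encodes progranulin, was at -0.83 and -0.84 in late Smurf2-/- cells, -0.12 and 0.066 in late wild-type cells, -0.066 and 0.35 in early Smurf2-/- cells and 0.16 and 0.33 in early wild-type cells. The late Smurf2-/- arrays stood far below all 6 others (-0.63 ± 0.17). Psap, the precursor of the saposins that help sphingolipid hydrolases, was at -0.47 and -0.53 in late Smurf2-/- cells, -0.15 and 0.026 in late wild-type cells, -0.026 and 0.086 in early Smurf2-/- cells and 0.056 and 0.085 in early wild-type cells. It had the same order with smaller steps (-0.33 ± 0.10). Npc2, the soluble carrier of cholesterol, was at -0.51 and -0.39 in late Smurf2-/- cells, -0.036 and -0.44 in late wild-type cells, 0.10 and 0.30 in early Smurf2-/- cells and 0.036 and 0.34 in early wild-type cells. Late and early arrays did not overlap for Npc2 (-0.54 ± 0.13). Gm2a, the activator of ganglioside breakdown, was at 0.046 and -0.84 in late Smurf2-/- cells, -0.027 and -0.24 in late wild-type cells, -0.12 and 0.027 in early Smurf2-/- cells and 0.44 and 0.058 in early wild-type cells. Here the passage classes overlapped, and the late Smurf2-/- C57B6 array was the lowest (-0.37 ± 0.16).

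The 6 membrane proteins were lower in late cells as well, 4 at an unadjusted p under 0.05 (median -0.41). Lamp1, an abundant glycoprotein of the lysosomal membrane whose promoter held 4 palindromes, was at -0.46 and -0.65 in the late Smurf2-/- arrays and -0.083 and -0.11 in the late wild-type arrays, against 0.083 and 0.36 in the early Smurf2-/- arrays and 0.12 and 0.30 in the early wild-type arrays. Late and early arrays did not overlap, and late Smurf2-/- cells were lowest (-0.54 ± 0.13). Lamp2, its partner and the receptor of chaperone-mediated autophagy, was at -0.59 and -1.11 in the late Smurf2-/- arrays and 0.019 and -0.24 in the late wild-type arrays, against -0.019 and 0.12 in the early Smurf2-/- arrays and 0.11 and 0.31 in the early wild-type arrays. The 2 late Smurf2-/- arrays stood apart, and the late wild-type mixed BL array was within the early range (-0.61 ± 0.18). Npc1, the membrane transporter that takes cholesterol from Npc2, was at -0.58 and -0.69 in the late Smurf2-/- arrays and -0.094 and 0.25 in the late wild-type arrays, against -0.065 and 0.47 in the early Smurf2-/- arrays and 0.065 and 0.24 in the early wild-type arrays. The late and early C57B6 wild-type arrays stood side by side, whereas both late Smurf2-/- arrays were below their early partners (-0.46 ± 0.19 over all). Cd63, a tetraspanin of late endosomes and lysosomes, was at -0.37 and -0.33 in late Smurf2-/- cells, 0.0045 and -0.023 in late wild-type cells, 0.11 and 0.22 in early Smurf2-/- cells and -0.0045 and 0.37 in early wild-type cells. The late wild-type arrays stayed at the median and the late Smurf2-/- arrays lay under it (-0.35 ± 0.10). Scarb2, the receptor that carries glucocerebrosidase to lysosomes, was at -0.052 and -0.71 in late Smurf2-/- cells, 0.0094 and 0.026 in late wild-type cells, -0.15 and 0.27 in early Smurf2-/- cells and -0.0094 and 0.54 in early wild-type cells. Mcoln1, a calcium channel of the lysosomal membrane, was at -0.51 and -0.045 in late Smurf2-/- cells, 0.098 and -0.021 in late wild-type cells, -0.15 and 0.59 in early Smurf2-/- cells and 0.021 and 0.54 in early wild-type cells. In both, the early C57B6 arrays were the highest of the 8, and the 4 mixed BL arrays of Scarb2 lay between -0.15 and 0.0094 (-0.35 ± 0.20 for Scarb2 and -0.37 ± 0.15 for Mcoln1).

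All 5 pump subunits were lower in the late array of all 4 pairs, each at an unadjusted p under 0.05 (median -0.58). Atp6v1a, the catalytic subunit of the cytosolic sector, was at -0.55 and -0.43 in the late Smurf2-/- arrays and -0.15 and -0.099 in the late wild-type arrays, against 0.26 and 0.099 in the early Smurf2-/- arrays and 0.42 and 0.18 in the early wild-type arrays. Its passage classes did not overlap, and the late Smurf2-/- arrays were the lowest (-0.55 ± 0.094). Atp6v1b2, the partner subunit in the catalytic ring, was at -0.34 and -0.23 in the late Smurf2-/- arrays and 0.085 and -0.34 in the late wild-type arrays, against -0.085 and 0.16 in the early Smurf2-/- arrays and 0.18 and 0.35 in the early wild-type arrays. It differed less, with its late wild-type mixed BL array inside the early range (-0.36 ± 0.12). Atp6v1h, a regulatory subunit that joins the sectors, was at -0.37 and -0.55 in the late Smurf2-/- arrays and -0.012 and -0.34 in the late wild-type arrays, against 0.48 and 0.012 in the early Smurf2-/- arrays and 0.34 and 0.21 in the early wild-type arrays. Atp6v0d1, of the membrane sector, was at -0.72 and -0.65 in the late Smurf2-/- arrays and 0.023 and -0.27 in the late wild-type arrays, against 0.32 and 0.24 in the early Smurf2-/- arrays and 0.38 and -0.023 in the early wild-type arrays. In both the late Smurf2-/- arrays were the lowest, and only Atp6v1h had non-overlapping passage classes (-0.58 ± 0.091 and -0.63 ± 0.16). Atp6ap1, an accessory subunit encoded on the X chromosome, was at -0.87 and -0.78 in the late Smurf2-/- arrays and -0.44 and -0.15 in the late wild-type arrays, against 0.18 and 0.29 in the early Smurf2-/- arrays and 0.31 and 0.15 in the early wild-type arrays. It had the widest difference of the 5, a 1.73-fold lower signal in late cells (-0.79 ± 0.14, adjusted p = 0.119).

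Tfeb is the transcription factor among the members. Its late arrays were at -0.020 and 0.12 for Smurf2-/- and at 0.020 and 0.34 for wild-type cells. Its early arrays were at -0.24 and -0.088 for Smurf2-/- and at -0.074 and 0.24 for wild-type cells. Tfeb was the single member higher late in all 4 pairs, by 0.16 ± 0.065 (adjusted p = 0.292). The median passage difference was -0.54 over the 14 members whose promoter window held CACGTG and -0.56 over the 24 whose window did not.

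**Figure D4:**
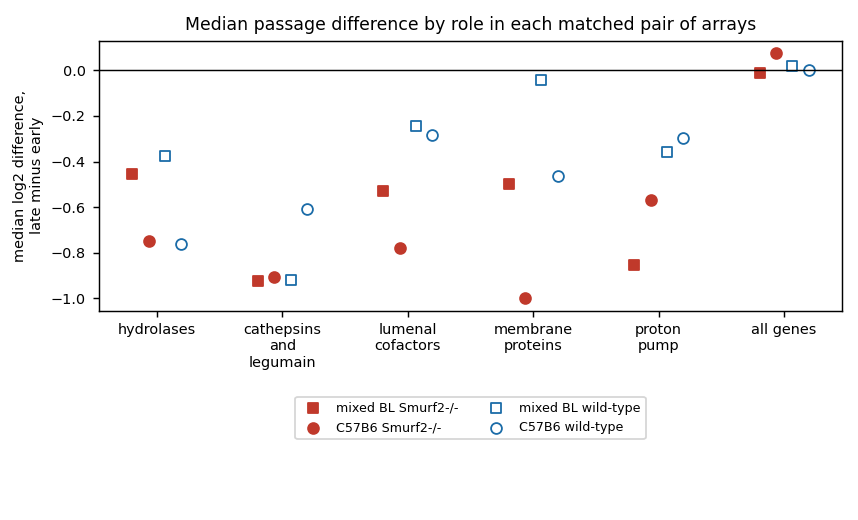
Median late-minus-early log2 difference of each role in each of the 4 matched pairs of arrays (red, Smurf2-/-; blue, wild-type; squares, mixed BL; circles, C57B6), with all genes at the right. All 5 roles are below 0 in all 4 pairs, and the membrane proteins are nearest to 0 in the wild-type mixed BL pair at -0.043.

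The next comparison asked whether the passage difference was the same in Smurf2-/- and wild-type cells. Within Smurf2-/- cells 40 of 44 members were lower late, with a median of -0.66, and within wild-type cells 43 were, with a median of -0.45. At an unadjusted p under 0.05, 29 were lower within Smurf2-/- cells (8.71% of all genes) and 19 within wild-type cells (4.89% of all genes). The late Smurf2-/- arrays were the lowest 2 of the 8 in 23 members, where 8.13% of all genes had that order (21 of the 35 members of the bright class, where 15.4% did). The difference between these differences, the interaction, was negative for 29 members with a median of -0.21. It passed the adjusted threshold for 0 members and 0% of all genes. At an unadjusted p under 0.05 it was negative for 8 members (2.5% of all genes) and positive for 0. These 8 were the proteases Ctsf (-1.07 ± 0.22), Ctsd (-0.70 ± 0.18) and Ctsa (-0.47 ± 0.12), the cofactors Grn (-0.70 ± 0.18) and Psap (-0.40 ± 0.14), the cholesterol transporter Npc1 (-0.76 ± 0.24), and the pump genes Atp6v0d1 (-0.66 ± 0.20) and Atp6ap1 (-0.54 ± 0.18). The lowest adjusted p among members was 0.775, for Ctsf, so the more negative passage difference in Smurf2-/- cells is a description of these arrays and not a call. That count rests on single arrays: it was 2 without the early C57B6 Smurf2-/- array, 4 without the early C57B6 wild-type array and 1 after quantile normalisation.

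By role, the interaction was negative for all 6 membrane proteins (median -0.39), for 4 of 5 pump subunits (-0.26) and for 3 of 4 cofactors (-0.31). It was negative for 11 of 18 hydrolases (-0.064) and for 5 of 10 proteases (0.017), where 45.9% of all genes were negative. Ctsd differed by passage by -1.19 within Smurf2-/- and -0.49 within wild-type cells. Ctsf stood at -1.90 within Smurf2-/- and -0.83 within wild-type cells, and Grn at -0.98 within Smurf2-/- and -0.27 within wild-type cells. Some members went the other way: Ctsb was at -0.71 within Smurf2-/- and -0.97 within wild-type cells, and Naglu at -0.20 within Smurf2-/- and -0.84 within wild-type cells. Ctsk, with the widest passage difference, was at -1.76 within Smurf2-/- and -3.17 within wild-type cells, an interaction of 1.41 ± 0.92.

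**Figure D5:**
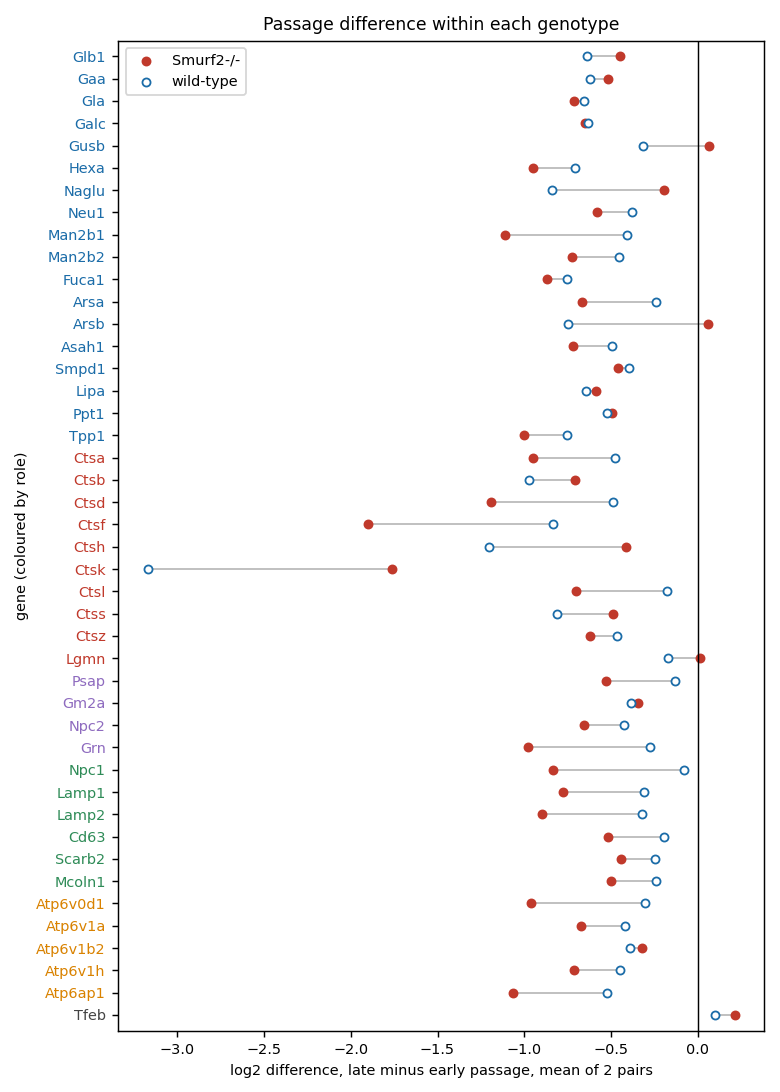
Late-minus-early log2 difference of each member within Smurf2-/- cells (filled red) and within wild-type cells (open blue), each the mean of 2 pairs of arrays. For Ctsf the Smurf2-/- point lies at -1.90 and the wild-type point at -0.83, while for Ctsb the Smurf2-/- point lies at -0.71 and the wild-type point at -0.97.

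Genes of cycling cells moved with the same arrays. Their median signal over 9 measured genes was 0.43 (mixed BL) and 1.19 (C57B6) in late Smurf2-/- cells, and between -0.11 and -0.015 in the other 6 arrays. Mki67, the proliferation antigen, differed by passage by 0.90 ± 0.17 within Smurf2-/- and 0.0060 ± 0.17 within wild-type cells. All 9 were higher late within Smurf2-/- cells, where 57.8% of all genes were. Of the 9, 7 were so at an unadjusted p under 0.05 (1060 of all 17501 genes) and 0 after adjustment (0 of all genes). The part of this in the lysosomal values was not tested. Macrophage and leukocyte markers, from cells rich in cathepsins, had medians between -0.046 and 0.13 on the 8 arrays. Of their 17 genes, 1 was lower late at an unadjusted p under 0.05, where 10.3% of all genes were. This was Lyz2 (-1.72 ± 0.52), which encodes lysozyme and is named after its value was seen. Split by background, within mixed BL cells 14 of 17 were lower late, where 48.1% of all genes were. There 1 of the 17 was called (Lyz2, -2.91 ± 0.29, limma adjusted p = 0.0441), and 85 of all 17501 genes were. Within C57B6 cells 16 of 17 were higher late, where 59.6% of all genes were. None of the 17 was called there (0 of all genes), and 0 were at an unadjusted p under 0.05 (1885 of all genes). Lyz2 was at -0.41 and -0.49 in the late Smurf2-/- arrays and -0.13 and -0.26 in the late wild-type arrays, against 2.07 and 0.19 in the early Smurf2-/- arrays and 3.20 and 0.13 in the early wild-type arrays. Its 2 high arrays were the early mixed BL arrays, the same 2 on which Ctss stood out. Fibroblast markers had a passage median of -0.21, with all 10 lower late (-2.07 to -0.012), where 42.5% of all genes were. Of the 10, 2 were lower at an unadjusted p under 0.05 (10.3% of all genes) and 0 after adjustment.

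For genotype itself, over both passages and backgrounds, Smurf2-/- cells had lower signals than wild-type cells in 36 of 44 members (median -0.19, against 0.015 over all genes). None of the members passed the adjusted threshold in limma: 0 of 44 did, and 0.0286% of all genes did. At an unadjusted p under 0.05, 12 members were lower in Smurf2-/- cells (4.42% of all genes) and 0 were higher. In 13 members the Smurf2-/- array was below its wild-type partner in all 4 pairs (9.35% of all genes), and in 0 members did all Smurf2-/- arrays lie below all wild-type arrays (1.02% of all genes). The count of 12 was 6 after quantile normalisation, 6 with the mixed BL wild-type array of late passage left out, and 7 with the late C57B6 Smurf2-/- array left out. It was 0 in the fit without the replicate block of passage class.

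The members lower in all 4 pairs came from 5 roles. Ctsf averaged -0.75 ± 1.10 in Smurf2-/- and 0.088 ± 0.51 in wild-type arrays (SD, n = 4 each), a difference of -0.84 ± 0.24 (SE; adjusted p = 0.651). The SD of the Smurf2-/- arrays, which holds the spread between passages, exceeds the gap between the means. Ctsd differed by -0.60 ± 0.17, Man2b2 by -0.50 ± 0.081, Lamp2 by -0.45 ± 0.18, Ctsa by -0.37 ± 0.11 and Fuca1 by -0.36 ± 0.077. Atp6v1a, the pump's catalytic subunit, differed by -0.24 ± 0.094, and Ppt1 by -0.31 ± 0.092. Man2b2 and Fuca1 stood apart at both passages: at -0.64 late and -0.37 early for Man2b2, and at -0.42 late and -0.30 early for Fuca1. Tfeb was also lower in Smurf2-/- cells in all 4 pairs (-0.19 ± 0.065, adjusted p = 0.651). Glb1 had no common direction (0.13 ± 0.14, and -0.026 without the late C57B6 wild-type array). The X-linked members differed by -0.10 ± 0.23 (Gla), -0.45 ± 0.18 (Lamp2) and -0.26 ± 0.14 (Atp6ap1).

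Taken by passage class, 17 members were lower in Smurf2-/- cells at an unadjusted p under 0.05 in late cells (6.97% of all genes) and 2 in early cells (0.703% of all genes). The 2 early ones were Man2b2 and Fuca1. The medians were -0.31 in late and -0.11 in early cells. Whether these differ is the interaction given above, which passed the adjusted threshold for 0 members. Among membrane proteins, late Smurf2-/- cells stood at -0.74 for Lamp2, -0.71 for Npc1 and -0.46 for Lamp1, against wild-type cells of the same passage. In early cells the same difference was -0.16 for Lamp2, 0.047 for Npc1 and 0.011 for Lamp1.

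Background gave small differences over the members as a group: 29 of 44 were lower in mixed BL than in C57B6 cells, with a median of -0.060. After adjustment 0 members passed, and 0.08% of all genes did. At an unadjusted p under 0.05 in either direction, 9 members were past the threshold, and 13.5% of all genes were. Ctsk was higher in mixed BL cells (1.57 ± 0.51) and Ctsh lower (-1.37 ± 0.31), the widest differences of the 44. Passage and background together gave 6 members with a positive interaction at an unadjusted p under 0.05 (3.99% of all genes), and 0 members after adjustment (0% of all genes). In these the late-minus-early difference was higher, that is less negative or above 0, in mixed BL cells. Gaa was at -0.18 in mixed BL and -0.96 in C57B6 cells, and Scarb2 at 0.056 in mixed BL and -0.75 in C57B6 cells. Galc was at -0.34 in mixed BL and -0.94 in C57B6 cells, and Smpd1 at -0.22 in mixed BL and -0.63 in C57B6 cells. Lgmn had opposite signs, 0.51 in mixed BL and -0.67 in C57B6 cells. Ctsz alone was negative at that threshold, with -1.02 in mixed BL and -0.063 in C57B6 cells. The count of 6 became 2 without the early C57B6 Smurf2-/- array, 3 without the early mixed BL Smurf2-/- array and 3 without the early mixed BL wild-type array. By role, that interaction was positive for 17 of 18 hydrolases, all 4 cofactors and all 6 membrane proteins, and negative for 4 of 5 pump subunits. Over all genes it was positive for 40.7% and negative for 59.3%. For genotype and background together, 0 members passed the interaction after adjustment (0% of all genes), and 0 at an unadjusted p under 0.05 (3.18% of all genes).

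Other genes of the same organelle, listed apart from the members but also with earlier results known, were counted for passage in the same way. Of all genes 42.5% were lower late, 10.3% at an unadjusted p under 0.05, and 20.6% of the bright class were at that threshold. That class held 11 of 31 lysosome clusters, 14 of 16 pump clusters and 11 of 22 clusters of regulators and autophagy genes. Of 30 measured lysosome genes, 27 were lower late, 18 at an unadjusted p under 0.05 and 0 after adjustment, with a median of -0.49. The 3 of smallest p were Cln3 (-1.02 ± 0.10), a membrane protein, Igf2r (-0.90 ± 0.088), the receptor that sorts hydrolases to lysosomes, and Aga (-0.84 ± 0.094), an amidase of glycoproteins. All 13 other pump genes were lower, 9 at that threshold (median -0.47), those of smallest p being Atp6v1d (-0.62 ± 0.080) and Atp6v0a1 (-0.47 ± 0.079). Of 21 regulators and autophagy genes 19 were lower, 11 at that threshold, with a median nearer to 0 (-0.27). Tfe3, a relative of Tfeb, was at -0.13 ± 0.11, Mitf at 0.016 ± 0.14 and Map1lc3b, which coats autophagosomes, at -0.23 ± 0.16. For genotype, 22 of the 30 lysosome genes were lower in Smurf2-/- cells, 8 at an unadjusted p under 0.05 (773 of all 17501 genes). At that threshold 1 of the 30 was higher (549 of all genes), and 0 passed after adjustment. The higher one was Ctsc (0.94 ± 0.38), a dipeptidyl peptidase, named after its value was seen. Among the 30, the highest genotype difference was 1.67 within late and 0.20 within early cells.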

How the data were processed

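RNA of 8 MEF cultures was hybridised to 1 array each, and their groups were taken from the labels' genotype, passage and background fields. Before deposit the authors had set the median of every transcript cluster to 0 on the log2 scale, as the deposited values show (largest row median 5e-07). That these are log2 intensities was read from their single-precision step, since 96.8% of the clusters held whole multiples of the step for numbers from 4 to 8 (tolerance 6e-08). For array normalisation and probe summary no source used here gives a method, and the submitters' processing notes list mm8 and mm9 without a role. A filter on dim probes was not possible on centred values, and the number of arrays limits the precision. An exon array is named in the series text, but the annotation that probe IDs fitted is a gene-level array's. Of 24169 clusters, 19134 had 1 symbol, 1230 several and 3805 none, and 19067 were renamed by gene ID from RefSeq GRCm38.p6. A gene's value was the mean of its clusters (899 genes had more than 1).

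limma 3.58.1 in R 4.3.3 (lmFit, eBayes, no trend) was fitted to all 17501 genes on genotype, background and passage class. Each interaction was added in turn, and contrasts within a group came from those fits. P-values were adjusted by Benjamini-Hochberg, with a threshold of 0.05. Every adjusted p in the text is limma's. A matched pair is the 2 arrays that share the other factors. Since passage class is in the model, it holds the pairing by passage that the titles' numbers give. Members were named with all array values by role, for the 3 smallest unadjusted p per comparison (for genotype and passage, with 1 sign in all 4 pairs), plus Glb1, Man2b2, Tfeb, Lamp1 and Atp6v1h, which gave 38 members. The members and the other lists were chosen with earlier results of these data known. The limma step was tested on simulated data for the genotype difference of the additive model only. No interaction was simulated, and the passage and interaction results were not covered by it. Promoters were searched in RefSeq windows of GRCm38.p6.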

Additional observations from a re-analysis of the deposited data

Results flagged for a closer look

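Arrays were compared within each genotype, each passage class and each background, in groups of 4. In 8 of 264 such groups of members, 1 array stood far from the other 3 (by Dixon's criterion at its 95% critical value), where chance gives about 1 in 20; the groups share arrays. Among wild-type arrays, Gusb stood at -0.57 on the late C57B6 array, below the others, and Ctss at 1.62 on the early mixed BL array, above the others. Cd63 at 0.37 and Scarb2 at 0.54 were high on the early C57B6 wild-type array, against the other wild-type arrays. Among late arrays, Ctsk stood at 0.43 on the mixed BL Smurf2-/- array, above the others, and Scarb2 at -0.71 on the C57B6 Smurf2-/- array, below the others. Man2b1 at -0.96 was low on the late Smurf2-/- array among mixed BL arrays, and Psap at -0.53 on the late Smurf2-/- array among C57B6 arrays.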

How the results depend on the processing

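The adjusted calls of members stayed at 0 for genotype, passage, background and the 3 interactions under quantile normalisation, single transcript clusters, removal of X and Y genes and leaving out each array. The exception was passage with a mean-variance trend, which called 2 members (Fuca1 and Ctsb, limma adjusted p = 0.0393 each). A trend has no clear meaning on centred values. With 1 array left out, 41 to 43 members stayed lower in late cells, 27 to 33 at an unadjusted p under 0.05. For genotype, the 12 members at that threshold became 6 after quantile normalisation, 0 with no replicate block (passage class not in the model), 13 with a block of 4 matched pairs, and 6 to 16 with 1 array left out. The 8 negative genotype by passage interactions became 1 after quantile normalisation and 2 to 9 with 1 array left out. The 6 positive passage by background interactions became 2 to 8 with 1 array left out. The cause of these shifts was not tested beyond fewer arrays. Single genes were rerun for all 44 members for passage, for 13 for genotype and for 16 for each of these 2 interactions, so other small differences were not covered. Among those rerun, signs turned with 1 array left out for the passage difference of Gusb (-0.33 to 0.10) and Lgmn (-0.30 to 0.10), the genotype difference of Glb1 (-0.026 to 0.23), the genotype by passage interaction of Npc2 (-0.53 to 0.077), and the passage by background interactions of Atp6ap1 (-0.48 to 0.063), Grn (-0.11 to 0.52) and Tfeb (-0.10 to 0.10). The last was 0.067 after quantile normalisation. How far signal over background limits dim members is unknown, since the values are centred.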

Other observations

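Among the regulators and autophagy genes outside the 44, the widest passage difference was that of Gpnmb, a transmembrane glycoprotein of lysosomes and melanosomes. It was at -1.56 and -1.57 in the late Smurf2-/- arrays and -1.57 and 0.17 in the late wild-type arrays, against -0.17 and 1.92 in the early Smurf2-/- arrays and 1.32 and 1.57 in the early wild-type arrays. Each late array lay below its early partner, while the late C57B6 wild-type array reached the early range, and the difference was -2.29 ± 0.38 (SE; limma, adjusted p = 0.113). Rragd and Rragc, GTPases that act in the recruitment of the growth regulator mTORC1 to lysosomes, stood at -0.91 ± 0.22 (adjusted p = 0.156) and -0.60 ± 0.098 (adjusted p = 0.113), and Mtor at -0.16 ± 0.10. None of the 21 genes of that list passed the adjusted threshold for passage. These genes were picked after their values were seen.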
